A study of Mus musculus with 6 samples.

Results

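Interstitial progenitors are the mesenchymal precursors from which the steroid-producing Leydig cells, the perivascular cells and the stroma of the gonad arise. They were followed here through 5 marker genes taken by name, Maf, Pdgfra, Pdgfrb, Tcf21 and Nes, and all 5 were among the 11736 genes of the deposited tables. RNA came from the somatic cells of gonads that were taken from XY embryos (E11.5, C57BL/6 mice). Both groups carried the Nr5a1-hCD271 genotype, in which the surface protein hCD271 marks cells so that magnetic beads can collect them. The 3 Cdyl-Het libraries, heterozygous for a Cdyl deficiency, served as controls for the 3 Cdyl-KO libraries, which were homozygous for it. The controls thus also carried the deficiency in 1 dose. Libraries are named below by group and replicate number (Cdyl-KO 2). Not given in the sources used here are the form of the Cdyl mutation, the elements that drive hCD271, and whether a library came from 1 embryo or from a pool. The spread that the p-values rest on is therefore that between these libraries, and it may be technical.

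In the embryonic gonad the interstitial cells surround the supporting cells that will form the testis cords. Maf encodes a basic leucine zipper transcription factor (c-MAF) of the interstitium, and Tcf21 encodes a basic helix-loop-helix (bHLH) factor of mesenchymal progenitors. Pdgfra and Pdgfrb encode the receptor tyrosine kinases for platelet-derived growth factors (PDGFs); the alpha receptor is used by interstitial and Leydig precursors, and the beta receptor is best known from pericytes and smooth muscle. Nes encodes nestin, an intermediate filament protein of progenitor and perivascular cells. None of these genes is restricted to the interstitium: macrophages and endothelial cells can express Maf, and endothelial and neural progenitor cells can express Nes. In bulk RNA, fewer cells of a type and less RNA per cell cannot be told apart.

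Values are given as scaled RPKM, that is, reads per kilobase of exon and per 1 M library reads, divided by a factor for each library. The values implied totals of 34.6 to 45.2 M reads per library. Across all genes, 566 were higher and 363 lower in Cdyl-KO (limma on log2(scaled RPKM + 1), Benjamini-Hochberg adjusted p under 0.05), or 7.92% of the genes tested. Groups did not overlap in 31.8% of all genes. The median log2 change of all genes was -0.0042 after scaling and -0.12 on the deposited values, and all changes below are relative to this shift. Cdyl itself, on chromosome 13 (35659833 to 35874063, mm10), was at 7.78, 8.04 and 8.27 in Cdyl-Het against 6.77, 6.95 and 7.01 in Cdyl-KO, without overlap but short of the threshold (limma adjusted p = 0.0635). Defining genes of the labelled cell type were abundant: Nr5a1 was at 70.6 to 93.7, Wt1 at 66.6 to 75.7 in Cdyl-Het and 73.9 to 76.9 in Cdyl-KO, and Gata4 at 71.0 to 88.3 scaled RPKM, with overlapping groups. The homeobox genes Lhx9 and Emx2 of the same list rose by 0.46 and 0.57 on the log2 scale (adjusted p = 0.0259 and 0.012). Emx2 passed with any 1 library left out, and Lhx9 passed without Cdyl-Het 1 or Cdyl-Het 3 and missed it in the other 4 fits (up to 0.0854).

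All 5 markers were expressed in every library, from 5.04 scaled RPKM upward, but on this per-length scale at lower levels than Nr5a1, Wt1 and Gata4. Averaged over the 6 libraries, Tcf21 (22.4) and Pdgfra (19.5) stood highest, above 88.3% and 86.0% of all genes. Nes (11.6) and Pdgfrb (8.09) followed, above 73.5% and 61.2%, and Maf (6.07) lay near the middle, above 50.6%. The order of the means was the same in both groups, yet 2 of its neighbours stood closer in Cdyl-KO. The ranges of Tcf21 and Pdgfra were apart in Cdyl-Het and overlapped in Cdyl-KO, and the same held for Pdgfrb and Maf. Nes lay below Pdgfra and above Pdgfrb in all 6 libraries. The summed level of the 5 genes was 68.1 to 69.9 in Cdyl-Het and 64.4 to 69.3 in Cdyl-KO, so that the ranges overlapped.

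**Figure D1:**
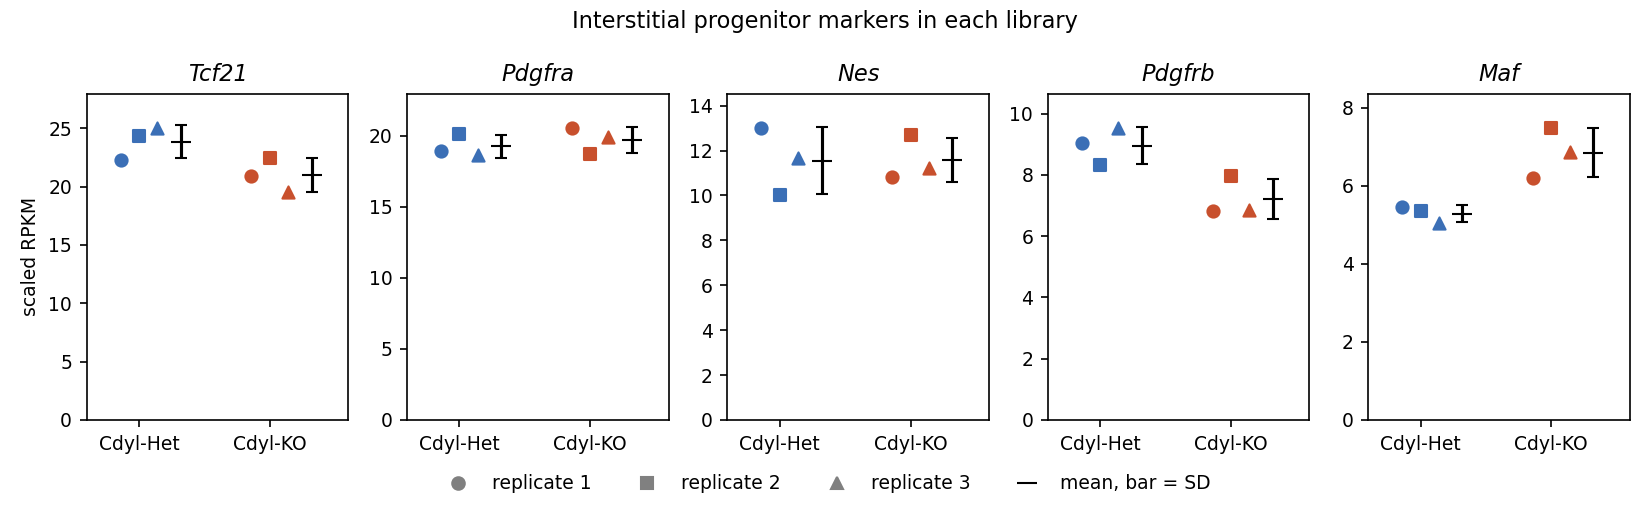
Level of each interstitial progenitor marker in scaled RPKM (vertical axes, each starting at 0) in the 3 Cdyl-Het and 3 Cdyl-KO libraries; points are libraries and bars are the mean and SD. Maf is higher and Pdgfrb lower in every Cdyl-KO library than in any Cdyl-Het library, and the other 3 genes overlap.

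Maf rose in Cdyl-KO, as did 4.82% of all genes. The gene lies on the minus strand of chromosome 8 (115682942 to 115707794, mm10), and its exons cover 8241 bp. Its level was 5.45, 5.36 and 5.04 scaled RPKM in Cdyl-Het against 6.21, 7.47 and 6.86 in Cdyl-KO. Every Cdyl-KO library was above every Cdyl-Het library, as for 16.8% of all genes, with the highest value in Cdyl-KO 2. The mean rose from 5.29 ± 0.218 to 6.84 ± 0.631 (SD, n = 3 per group), a difference of 29.5%, and the log2 change was 0.32 (SE 0.07, limma adjusted p = 0.0447). The values stood for 1623 to 1936 reads in Cdyl-Het and 2130 to 2553 in Cdyl-KO. The call was close to the threshold. With a library left out, the change was 0.27 to 0.38 and the adjusted p was 0.0487 without Cdyl-KO 1, the only one of these 6 fits that passed. It was 0.0783, 0.107 and 0.135 without Cdyl-Het 1, 2 and 3 in turn, and 0.111 when Cdyl-KO 2 or Cdyl-KO 3 was left out. On the deposited values the change was 0.20 (adjusted p = 0.106), and the adjusted p spanned 0.0400 to 0.135 across the alternatives. The exons of Maf share 440 bp with those of the antisense gene Gm15655, and since the strand setting of the counting is not given, reads of the 2 cannot be told apart there.

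The relatives of Maf that were in the tables did not pass the threshold. Of 12 listed genes of the MAF proteins and their dimer partners (the BACH and NRF factors), 9 were in the tables, and 0 passed in either direction, beside 7.92% of all genes (limma); 1 of them, Bach1, had an unadjusted p under 0.05 (adjusted p = 0.192). Bach1 had groups that did not overlap, at 12.3 to 13.3 and 13.5 to 15.1 scaled RPKM. The median log2 change of the 9 genes was -0.06, beside -0.0042 for all genes.

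Tcf21, the most abundant of the markers per length, leaned lower in Cdyl-KO without passing the threshold. The gene lies on the minus strand of chromosome 10 (22817281 to 22820174, mm10). Its level was 22.3, 24.3 and 25.0 scaled RPKM in Cdyl-Het against 20.9, 22.5 and 19.5 in Cdyl-KO, or 23.9 ± 1.404 and 21.0 ± 1.47 (SD, n = 3 per group). Cdyl-Het 1 lay just below Cdyl-KO 2, so that the groups overlapped. The log2 change was -0.18 (SE 0.07, limma adjusted p = 0.164; 95% interval -0.34 to -0.02 before any adjustment). The change had the same sign under every alternative tried, and on the deposited values without scaling it was -0.31 (adjusted p = 0.0384), the only alternative under which it passed; elsewhere the adjusted p reached 0.349. The values stood for 1890 to 2736 reads in Cdyl-Het and 1940 to 2190 in Cdyl-KO.

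TCF21 binds DNA as a dimer with E proteins, and ID proteins, which lack a DNA-binding region, capture E proteins and so limit such dimers. Of 21 listed bHLH factors, E proteins and ID genes, 12 were in the tables; 3 rose and 0 fell, and 9 missed the threshold (limma; 5 had an unadjusted p under 0.05), beside 4.82% of all genes higher and 3.09% lower. The 3 that rose were all ID genes. Id1 rose from 58.7, 59.0 and 51.6 scaled RPKM in Cdyl-Het to 113, 90.1 and 87.5 in Cdyl-KO (log2 change 0.76, SE 0.11, limma adjusted p = 0.0114). Id3 rose from 29.5, 27.1 and 25.5 to 47.2, 41.5 and 39.2 (log2 change 0.62, adjusted p = 0.0102). Id2 rose from 37.4, 33.4 and 33.7 to 53.1, 49.2 and 45.4 (log2 change 0.49, adjusted p = 0.0137). In each of the 3 genes all Cdyl-KO libraries lay above all Cdyl-Het libraries. Id1 and Id3 passed with any 1 library left out; Id2 did not without Cdyl-Het 2 or 3 (adjusted p = 0.0570 and 0.0601; spanning 0.0128 to 0.0601 across the alternatives). The E protein genes Tcf3, Tcf4 and Tcf12 had log2 changes of 0.18, 0.07 and 0.02 and did not pass (adjusted p = 0.106, 0.514 and 0.834). Hand2, a bHLH factor of mesenchyme, was at 3.63 to 3.98 scaled RPKM in Cdyl-Het and 3.10 to 3.77 in Cdyl-KO.

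The stretch just upstream of Pdgfra and of Nes is shown because each holds a match to the DNA element of 1 of the set's transcription factors. bHLH dimers such as those of TCF21 bind the E-box CANNTG, and MAF factors bind an element whose core is TGCTGA. Both strands were searched for these letters in the 215 bases that run from 250 to 36 bases before each RefSeq gene start (GRCm38.p6). Capitals mark a match to either motif, and the 2 motifs do not overlap here.
Pdgfra upstream, plus strand, chr5:75152001-75152215: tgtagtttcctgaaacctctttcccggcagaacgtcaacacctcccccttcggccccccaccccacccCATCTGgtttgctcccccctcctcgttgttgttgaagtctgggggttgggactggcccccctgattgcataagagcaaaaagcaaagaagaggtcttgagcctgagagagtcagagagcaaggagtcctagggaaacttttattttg
Nes upstream, plus strand, chr3:87970843-87971057: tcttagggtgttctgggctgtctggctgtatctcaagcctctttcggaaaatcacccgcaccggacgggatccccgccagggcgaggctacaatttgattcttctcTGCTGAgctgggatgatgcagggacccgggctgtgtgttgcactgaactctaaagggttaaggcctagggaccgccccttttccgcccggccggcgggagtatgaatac
Pdgfra held 1 E-box, which began 182 bases before the start, and no TGCTGA. Nes held 1 TGCTGA, which began 144 bases before the start, and no E-box. The same stretch of Tcf21 held neither, and the stretches of Maf and Pdgfrb are not described here. Such matches are common: of 32851 upstream stretches of the same length, 61.4% held an E-box and 14.1% held TGCTGA on either strand. The matches describe letters only, and no binding was measured here.

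Of the PDGF receptors, Pdgfrb had lower values in Cdyl-KO and Pdgfra similar ones. Pdgfrb, on the plus strand of chromosome 18 (61045150 to 61085061, mm10), was at 9.04, 8.32 and 9.51 scaled RPKM in Cdyl-Het against 6.83, 7.96 and 6.87 in Cdyl-KO. The groups did not overlap, as in 15% of all genes on the lower side, and Cdyl-KO 2 came nearest to the controls. The means were 8.96 ± 0.601 and 7.22 ± 0.645 (SD, n = 3 per group), with a log2 change of -0.28 (SE 0.08) that missed the threshold (limma adjusted p = 0.0734), which 3.09% of all genes passed on the lower side. Its 95% interval before adjustment ran from -0.46 to -0.10. On the deposited values the change was -0.40 and passed (adjusted p = 0.0235); elsewhere the adjusted p reached 0.195, and the sign was the same in every fit.

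Pdgfra, on the plus strand of chromosome 5 (75152292 to 75198215, mm10), was at 18.9, 20.1 and 18.7 scaled RPKM in Cdyl-Het against 20.5, 18.7 and 19.9 in Cdyl-KO. The groups overlapped almost fully. The means were 19.2 ± 0.789 and 19.7 ± 0.919 (SD, n = 3 per group; log2 change 0.03, SE 0.06, limma adjusted p = 0.761), and the 95% interval of the log2 change was -0.10 to 0.16. The change was below 0 on the deposited values (-0.10), with quantile normalization (-0.03) and with upper quartile scaling (-0.00091). With 6855 to 8722 reads behind each value, Pdgfra was the most deeply read of the markers. Its exons share 456 bp with the antisense gene Gm42802, 166 bp with Gm42803 and 30 bp with Mir7025.

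The ratio of Pdgfra to Pdgfrb in scaled RPKM within a library was 2.10, 2.42 and 1.96 in Cdyl-Het against 3.002, 2.35 and 2.90 in Cdyl-KO. Cdyl-KO 2 lay within the range of the controls, and the other 2 Cdyl-KO libraries lay above it. The exact two-sided permutation test, made on the difference of the 2 genes' log2(scaled RPKM + 1), gave p = 0.20, where 3 libraries against 3 cannot give less than 0.10.

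Of 3 PDGF ligand genes in the tables, 1 rose and 1 fell, where 7.92% of all genes passed. Pdgfa, whose product acts through the alpha receptor and is made by the supporting cells of the fetal testis, fell from 5.42, 7.22 and 6.99 scaled RPKM in Cdyl-Het to 4.30, 3.56 and 4.82 in Cdyl-KO (log2 change -0.53, SE 0.12, limma adjusted p = 0.0487). Pdgfc, another ligand of the alpha receptor, rose from 16.4, 18.2 and 16.7 to 22.2, 21.6 and 21.5 (log2 change 0.33, SE 0.05, limma adjusted p = 0.0169). In both genes the groups did not overlap. The ratio of Pdgfc to Pdgfa was 3.03, 2.52 and 2.40 in Cdyl-Het against 5.17, 6.07 and 4.46 in Cdyl-KO. Since Pdgfc lay higher and Pdgfa lower without overlap, this ratio had to separate the groups and is no further result. Pdgfd, a ligand of the beta receptor, was at 4.35, 5.03 and 4.77 and at 6.29, 6.30 and 4.82 scaled RPKM and did not pass (log2 change 0.24, limma adjusted p = 0.191). Pdgfb, the fourth ligand gene, is not analysed here. With a library left out, Pdgfa passed only without Cdyl-Het 1 (adjusted p = 0.0291) and had 0.0581 to 0.152 in the other 5 fits. Pdgfc missed the threshold without Cdyl-Het 3 (0.0668), Cdyl-KO 1 (0.0649) or Cdyl-KO 2 (0.0532), and on the deposited values its change was 0.20 (adjusted p = 0.0534). Exons of Pdgfa share 813 bp with the antisense gene 6330403L08Rik and exons of Pdgfc share 147 bp with the antisense gene Gm16000.

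**Figure D2:**
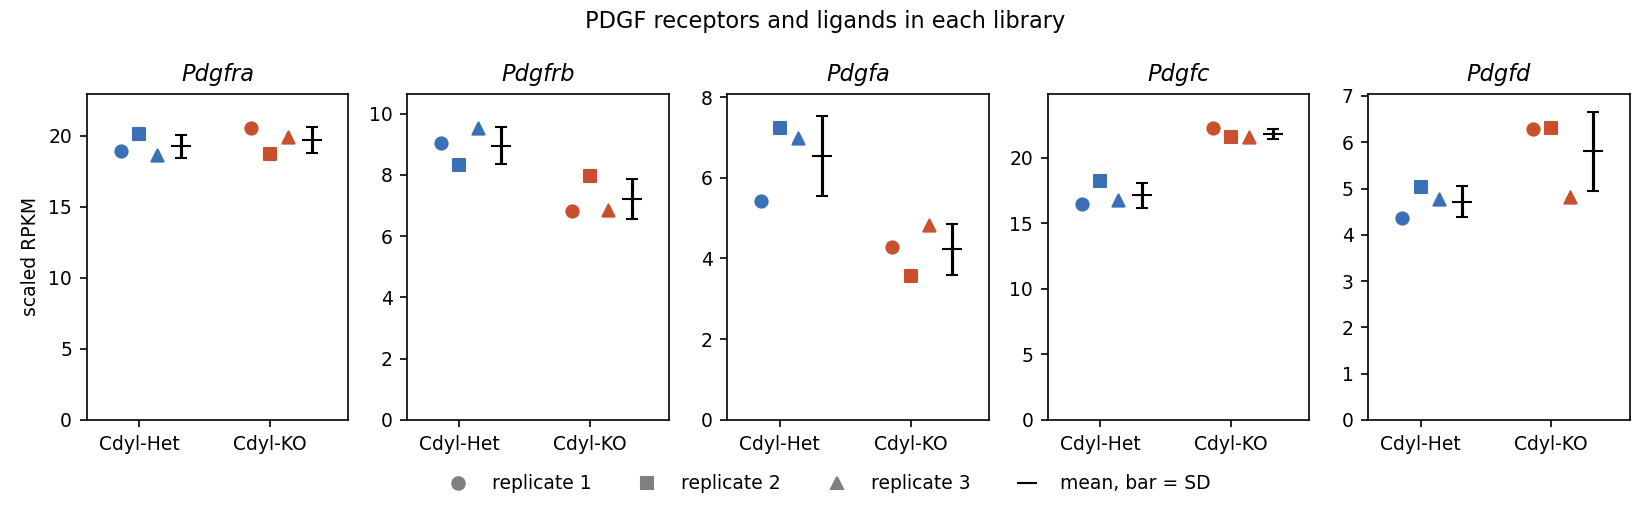
Level of the PDGF receptor genes Pdgfra and Pdgfrb and of the ligand genes Pdgfa, Pdgfc and Pdgfd in scaled RPKM (vertical axes, each starting at 0) in each library; bars are the mean and SD. Pdgfa is lower and Pdgfc higher in all 3 Cdyl-KO libraries, while Pdgfra overlaps between the groups.

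Behind the receptors, 1 gene passed the threshold, where 7.92% of all genes did. Of 28 listed adaptors, kinases and co-receptors that carry PDGF receptor signals, all were in the tables; 1 rose and 0 fell, and 27 missed the threshold (limma; 6 had an unadjusted p under 0.05). The gene that rose was Slc9a3r1, which encodes NHERF1, a scaffold protein that binds the tail of the receptor. It was at 14.3, 12.7 and 12.1 scaled RPKM in Cdyl-Het against 18.1, 19.8 and 19.96 in Cdyl-KO (log2 change 0.53, limma adjusted p = 0.0104), and it passed with any 1 library left out. Equal numbers of the list's genes, 14 and 14, lay above and below 0, and its median log2 change was 0.00017.

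Nes was at a similar level in both groups. The gene lies on the plus strand of chromosome 3 (87971078 to 87980451, mm10). Its level was 13.0, 10.01 and 11.7 scaled RPKM in Cdyl-Het against 10.8, 12.7 and 11.2 in Cdyl-KO, or 11.55 ± 1.49 and 11.6 ± 0.987 (SD, n = 3 per group). The groups overlapped, and Nes had the widest spread within Cdyl-Het of the 5 markers. The log2 change was 0.0079 (SE 0.10, limma adjusted p = 0.969), and its 95% interval, -0.23 to 0.24, was also the widest of the 5. The sign turned with a library or a scaling: the change was -0.08 without Cdyl-Het 2, -0.05 without Cdyl-KO 2, -0.12 on the deposited values, and -0.02 with both quantile normalization and upper quartile scaling.

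Some other intermediate filament genes rose. Of 16 listed genes, 13 were in the tables; 3 rose and 0 fell, and 10 missed the threshold (limma; 5 had an unadjusted p under 0.05), beside 4.82% of all genes higher. Nefm, the medium neurofilament subunit of neurons, rose from 5.86, 5.65 and 6.57 scaled RPKM in Cdyl-Het to 11.8, 12.1 and 10.7 in Cdyl-KO (log2 change 0.83, SE 0.07, limma adjusted p = 0.00242). The keratin partners Krt8 and Krt18, which form the filaments of simple epithelia, rose by 0.34 and 0.58 on the log2 scale (adjusted p = 0.0211 and 0.0218). Vim, the vimentin of mesenchymal cells and a partner of nestin in filaments, was at 145 to 165 in Cdyl-Het and 131 to 162 in Cdyl-KO and did not pass (log2 change -0.08, adjusted p = 0.620). Synm, synemin, which also assembles with nestin, was at 2.04, 2.06 and 2.71 and at 0.878, 1.42 and 1.35, apart between the groups but not past the threshold (log2 change -0.57, adjusted p = 0.0542; spanning 0.0277 to 0.157 across the alternatives). Nefm passed with any 1 library left out. Krt8 passed only without Cdyl-KO 1 (adjusted p = 0.0454, otherwise 0.0528 to 0.0775), and Krt18 only without Cdyl-Het 1 (0.00533, otherwise 0.0613 to 0.0826). On the deposited values Krt8 rose by 0.20 (adjusted p = 0.0503). Exons of Nefm share 1108 bp with Nefl on the opposite strand, and exons of Krt8 share 101 bp with Gm36026.

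Across the 5 markers, 1 passed the threshold, against 7.92% of all genes, and 2 had groups that did not overlap, against 31.8% of all genes. Their median log2 change was 0.0079. Their changes ran from -0.28 for Pdgfrb to 0.32 for Maf. Within a library, the ratio of Maf to Pdgfrb was 0.603, 0.645 and 0.530 in Cdyl-Het against 0.909, 0.938 and 0.999 in Cdyl-KO. The controls thus held clearly less Maf than Pdgfrb RNA per length, and the Cdyl-KO libraries held nearly equal levels. The 10 ratios between 2 markers were tested as differences of log2(scaled RPKM + 1), which are smaller than the logs of the plain ratios; 5 had groups that did not overlap, namely Maf over each of the other 4 and Pdgfrb over Nes. Each of these had an exact two-sided permutation p of 0.10, the smallest that 3 libraries against 3 can give, and an adjusted p of 0.20 over the 10 ratios. The 4 ratios with Maf share the change of that gene and are not separate results. Maf over Pdgfrb had to separate, since Maf lay higher and Pdgfrb lower without overlap. How often ratios of other genes separate was not counted. On the log2(scaled RPKM + 1) scale the ratio of Maf to Pdgfrb differed by 0.59 and that of Maf to Tcf21 by 0.50. With a pseudocount of 0.1 the ratio of Maf to Pdgfrb differed by 0.67.

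**Figure D3:**
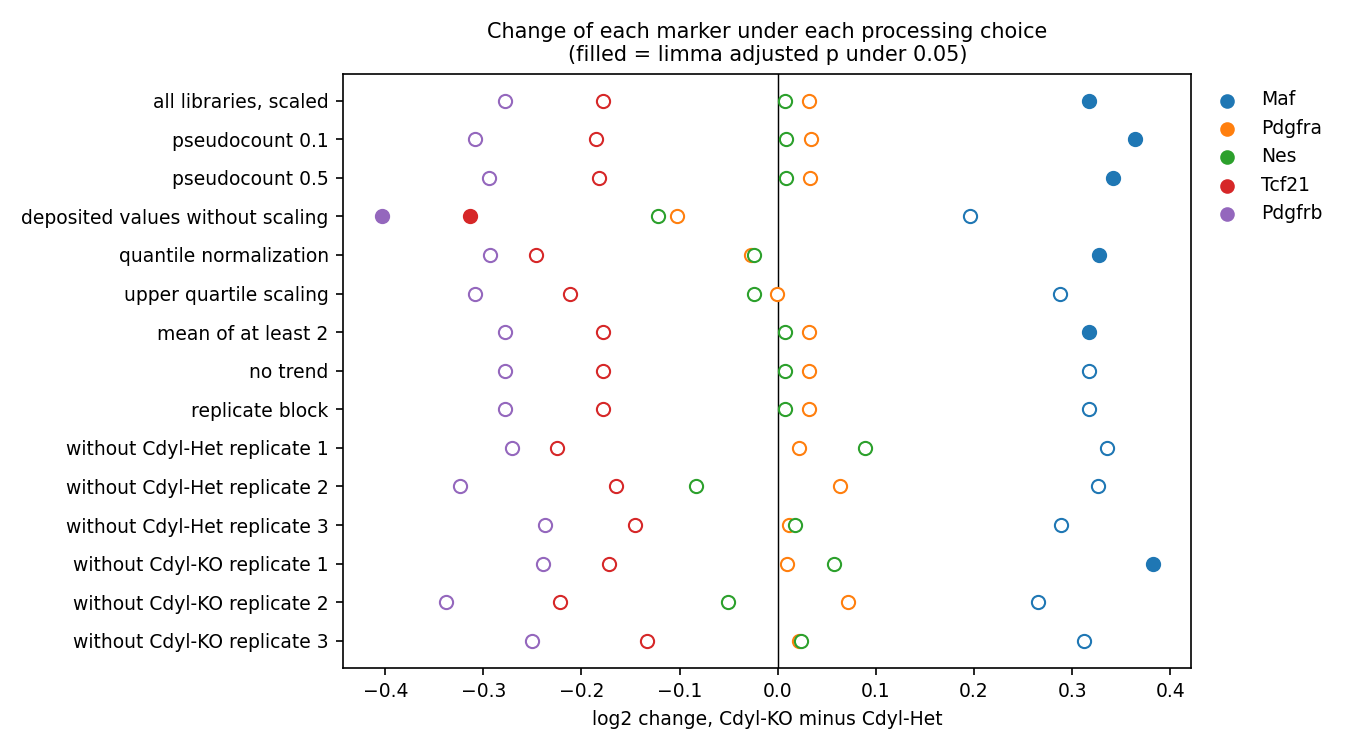
Log2 change (Cdyl-KO minus Cdyl-Het, horizontal axis) of the 5 markers under each processing choice (vertical axis); filled points have a limma adjusted p under 0.05. Maf stays above 0 and Pdgfrb and Tcf21 stay below 0 throughout, while Nes and Pdgfra lie around 0 and all 5 shift to the left on the deposited values.

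Other genes of the interstitial lineage gave a mixed picture. Of 36 listed genes, 32 were in the tables; 4 rose and 0 fell, and 28 missed the threshold (limma; 15 had an unadjusted p under 0.05), or 12.5% called against 7.92% of all genes. The median log2 change was 0.07, with 18 genes above 0 and 14 below. Hey1, a transcription factor downstream of Notch, rose from 7.89, 7.98 and 7.36 scaled RPKM in Cdyl-Het to 11.3, 10.6 and 10.4 in Cdyl-KO (log2 change 0.43, SE 0.06, limma adjusted p = 0.00913). Cxcl12, a chemokine of stromal cells, rose from 8.98, 7.92 and 8.35 to 10.8, 11.2 and 11.1 (log2 change 0.36, adjusted p = 0.0164). Wnt2b, a Wnt ligand, and Dlk1, a membrane protein of immature mesenchyme, rose by 0.33 and 0.29 (adjusted p = 0.0380 and 0.0172). In all 4 genes the groups did not overlap, as in 17 of the 32 genes of the list and 31.8% of all genes.

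Among the transcription factors of that list, Nr2f1, which encodes the nuclear receptor COUP-TFI, was at 10.6, 9.60 and 8.32 scaled RPKM in Cdyl-Het against 13.0, 11.47 and 12.1 in Cdyl-KO. Nr2f2, which encodes its relative COUP-TFII and marks interstitial cells, was at 33.6, 32.2 and 30.8 and at 35.4, 34.9 and 37.9. Both were without overlap and higher in Cdyl-KO, as were 16.8% of all genes, and neither passed the threshold (limma adjusted p = 0.0671 and 0.130). The log2 change of Nr2f2 was 0.16, but 0.02 on the deposited values and 0.075 with quantile normalization. That of Nr2f1 was 0.33, with 0.20 and 0.31 in these settings. The hedgehog target genes Ptch1 and Gli1, which report signalling to the interstitium, were at 7.07 to 8.004 and 3.44 to 4.28 scaled RPKM in Cdyl-Het and at 5.62 to 6.70 and 2.80 to 3.36 in Cdyl-KO. They lay lower without overlap, as did 15% of all genes, and did not pass (limma adjusted p = 0.0768 and 0.141). Of the collagen genes, Col1a1 and Col3a1 overlapped between the groups, and Col1a2 did not, at 21.1 to 23.3 in Cdyl-Het and 24.1 to 26.9 in Cdyl-KO (log2 change 0.21, adjusted p = 0.0947). Of the 4 called genes, Hey1 passed with any 1 library left out. Cxcl12, Dlk1 and Wnt2b passed only without Cdyl-Het 1 (adjusted p = 0.0178, 0.0364 and 0.0435) and had 0.0529 to 0.0667, 0.0534 to 0.0681 and 0.0932 to 0.112 in the other 5 fits. On the deposited values Dlk1 and Wnt2b had changes of 0.16 and 0.22 (adjusted p = 0.0588 and 0.0710). Hey1 and Cxcl12 still passed as higher (limma adjusted p = 0.0202 and 0.0412). In that setting Ptch1, Gli1, Heyl and Ednra passed as lower (limma adjusted p = 0.0185, 0.0412, 0.0427 and 0.041). The list thus had 6 called genes there, in both directions, where 305 of all genes were higher and 1558 lower.

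**Figure D4:**
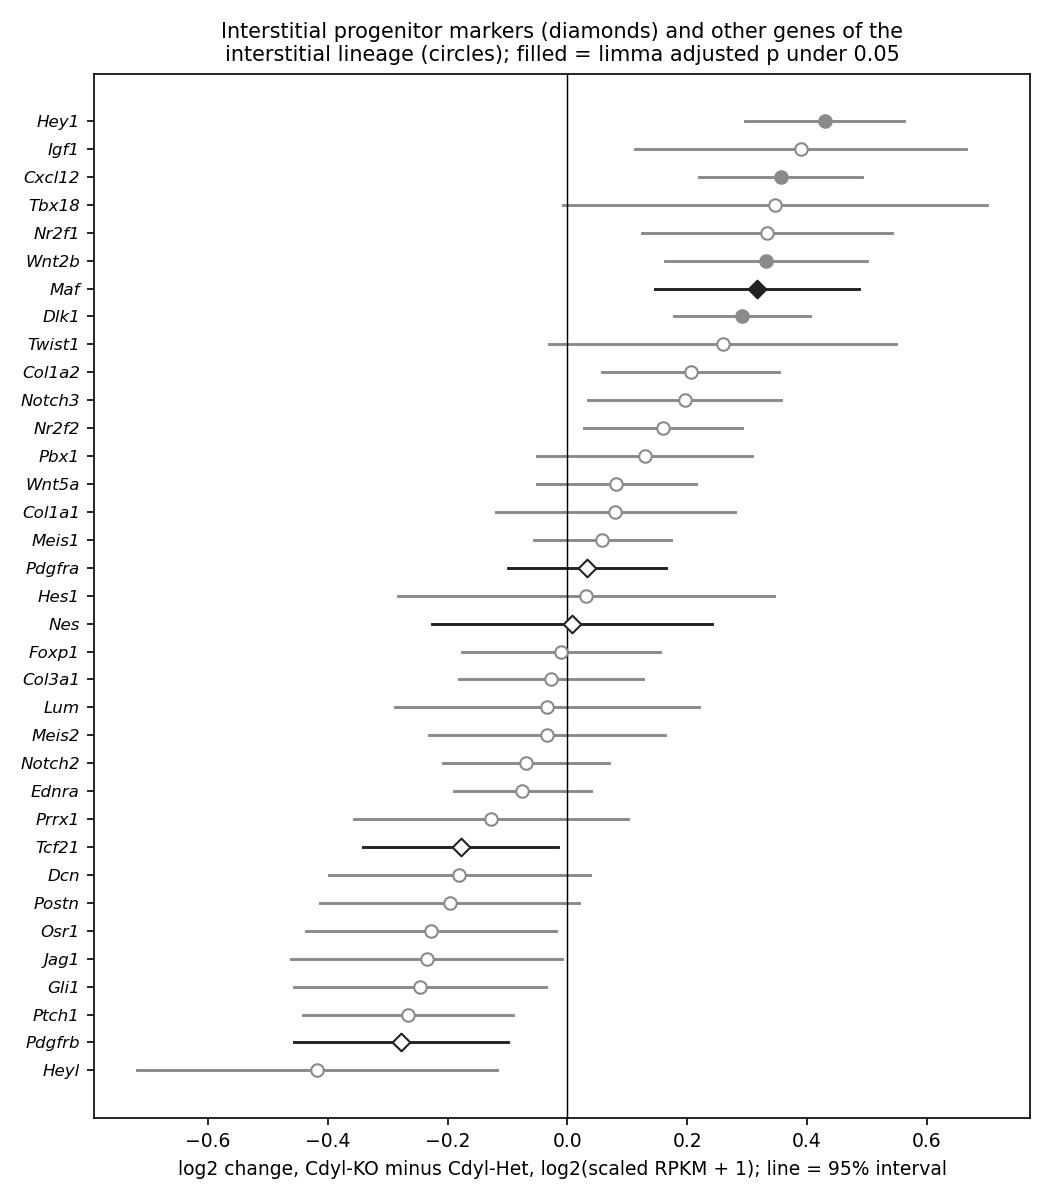
Log2 change (Cdyl-KO minus Cdyl-Het, horizontal axis) with its 95% interval for the 5 markers (diamonds) and other genes of the interstitial lineage (circles); filled symbols have a limma adjusted p under 0.05. Maf lies among the rising genes, Pdgfrb near the bottom, and Pdgfra and Nes at 0.

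Some markers of cell types that can share these genes fell, where 3.09% of all genes did. Of 15 listed endothelial genes, 11 were in the tables; 5 fell and 0 rose, 6 missing the threshold (limma; 9 had an unadjusted p under 0.05), and their summed level was 43.8 to 48.4 scaled RPKM in Cdyl-Het and 28.9 to 33.9 in Cdyl-KO. Kdr, a receptor of vascular growth factor, fell by 0.58 on the log2 scale (adjusted p = 0.00729) and passed with any 1 library left out. Cdh5, Tek, Eng and Egfl7 were the other 4 that fell (adjusted p = 0.0322, 0.0466, 0.0362 and 0.0277); with a library left out they passed in 2, 1, 2 and 1 of 6 fits, and the largest adjusted p was 0.110, 0.147, 0.121 and 0.0930. The mural genes of pericytes and smooth muscle, with 7 of 12 in the tables, summed to 33.5 to 38.6 in Cdyl-Het and 29.9 to 33.97 in Cdyl-KO, and 2 fell: Myh11 and Mcam (log2 changes -0.48 and -0.45, adjusted p = 0.0159 and 0.0251). They passed in 3 and 2 of the 6 fits that left out a library, with adjusted p up to 0.0694 and 0.0929. The pericyte genes Rgs5 and Cspg4 were at 3.98 to 4.89 and 2.47 to 3.12 in Cdyl-Het and at 3.38 to 5.03 and 2.13 to 2.26 in Cdyl-KO. The mural genes Acta2 and Tagln leaned the other way, each with a log2 change of 0.16, and did not pass (limma adjusted p = 0.467 and 0.375). Pdgfrb thus lay lower in the same libraries as the endothelial list and part of the mural list. Cdyl-KO 2 was the highest Cdyl-KO library for Pdgfrb, for the endothelial sum and for the mural sum. It was also the highest for Maf (7.47), Tcf21 (22.5) and Nes (12.7), but not for the mural genes Myh11 (3.78) and Mcam (3.57). The part of these cells in the difference of Pdgfrb was not tested.

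Macrophages, which can express Maf, were represented by few genes. Of 13 listed macrophage genes, 2 were in the tables, Cd68 and Fcer1g, and they summed to 3.45 to 4.40 scaled RPKM in Cdyl-Het and 3.21 to 5.14 in Cdyl-KO; the defining macrophage genes Ptprc, Csf1r, Adgre1 and Cx3cr1 are not analysed here. The part of macrophages and of endothelial cells in the difference of Maf was not tested. Fetal Leydig cell genes mark the differentiated fate of some interstitial progenitors. Of 11 listed, 7 were in the tables, and the defining genes Cyp17a1 and Insl3 are not analysed here. The 7 summed to 44.3 to 56.8 in Cdyl-Het and 35.5 to 41.3 in Cdyl-KO, with 2 lower (3.09% of all genes were) and 5 not past the threshold. Whether Leydig cells were present was not tested. Hsd3b1, a steroidogenic dehydrogenase, fell from 4.39, 5.12 and 4.93 to 2.38, 2.27 and 2.33 (log2 change -0.80, adjusted p = 0.00262), also with any 1 library left out. Scarb1, a lipoprotein receptor, fell by 0.44 (adjusted p = 0.0491) but passed in none of the fits that left out a library (0.0660 to 0.133). Mesonephric epithelium genes summed to 15.1 to 21.5 and 17.3 to 21.6; of the 7 in the tables Pax8, a factor of the kidney ducts, rose by 0.40 on the log2 scale (adjusted p = 0.0222) and passed only without Cdyl-Het 1 when a library was left out (otherwise up to 0.0706). Germ cell genes, with 2 of 13 in the tables, summed to 3.33 to 5.18 and 3.11 to 3.78. Haemoglobin genes varied most within groups, from 51.8 to 260 in Cdyl-Het and 55.1 to 160 in Cdyl-KO.

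**Figure D5:**
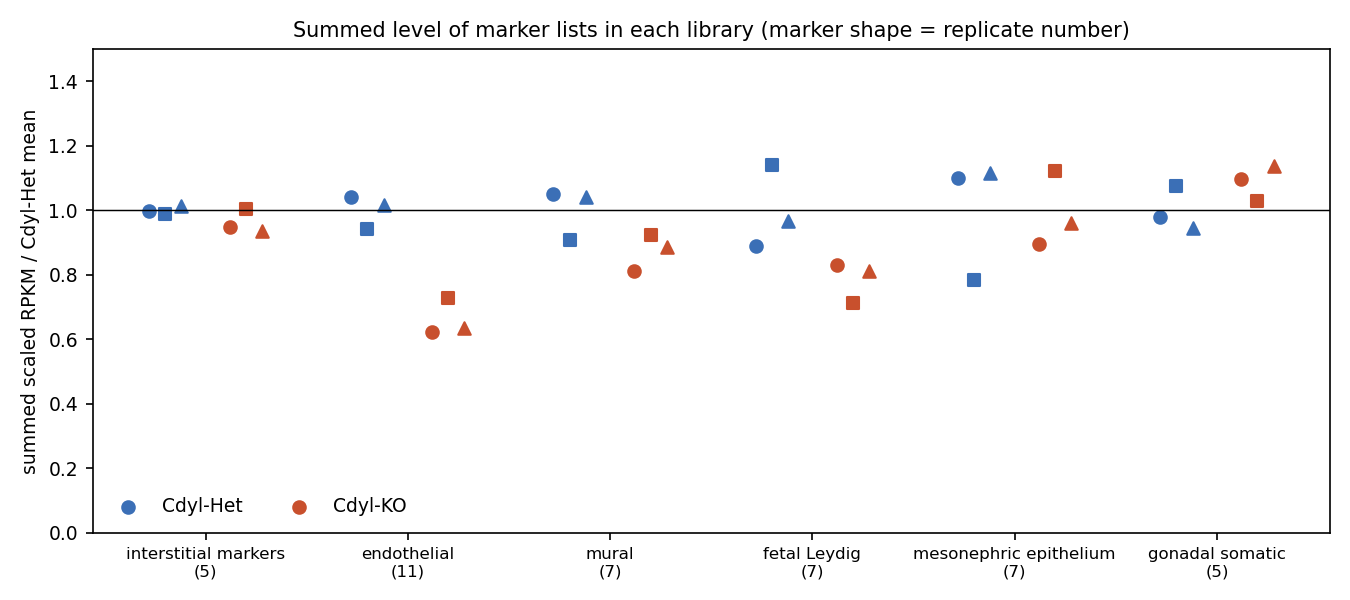
Summed scaled RPKM of the 5 interstitial markers and of marker lists of other cell types in each library, divided by the Cdyl-Het mean of that list (vertical axis, from 0). The endothelial sum is lower in all 3 Cdyl-KO libraries (28.9 to 33.9 against 43.8 to 48.4), while the sums of the interstitial markers, the mesonephric epithelium and the gonadal somatic genes overlap between the groups.

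The genes most like each marker were taken as those with the smallest root-mean-square difference between centred log2 profiles over the 6 libraries, among 6409 other named genes with a mean of at least 5 scaled RPKM. For Maf these were Rassf10, Imp3 and E2f5 (differences of 0.029, 0.031 and 0.034). For Pdgfrb they were Chd1l, Adam19 and Coil (0.028, 0.031 and 0.039), and for Tcf21 they were Plekhj1, Tmx2 and Bora (0.023, 0.033 and 0.034). Pdgfra was nearest to Dmwd, Srfbp1 and Wtip (0.017, 0.018 and 0.018), and Nes to Zkscan5, Dstyk and Uaca (0.020, 0.029 and 0.044). None of the 15 was a gene of the interstitial lineage list, which could supply at most 32 of the 6409 candidates. With 6 libraries and so many candidates such close matches are a description of these libraries only.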

How the data were processed

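RNA was measured in 6 libraries, 3 Cdyl-Het and 3 Cdyl-KO, grouped by their titles. The mm10 build and the tools STAR, Subread and featureCounts 1.6.4 are named, without their roles, in the submitters' processing notes; not given in the sources used here are the annotation, the strand setting and any filter. The authors deposited 1 value per gene, taken as RPKM: multiplied by the GENCODE M21 exon length (98.3% of symbols matched once; also the source of coordinates and overlaps), 84.7% to 86.9% of values under 200 reads in single-exon genes came out whole (tolerance 0.02), which gave each library's implied total. Of these, 64.3% to 70.8% were even, so separate fragments may be fewer than reads. For each gene, the larger of the 2 group means was 1.005 or more.

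Values were divided by a trimmed mean of log ratios (30% of ratios and 5% of levels trimmed), and log2(scaled RPKM + 1) was fitted over all 11736 genes with limma 3.58.1 (R 4.3.3, empirical Bayes with trend, Benjamini-Hochberg, threshold 0.05), checked on simulated data. Fold changes on this scale understate those of low genes. The genes that could be named were the markers, Cdyl, and the lists on interstitial lineage, PDGF ligands, MAF family, TCF21 partners and intermediate filaments. They included up to 4 genes past the threshold and the defining markers of each other list, and the 3 genes most like each marker. Tek was added after its values were seen. Tagln, Ngfr, Cd68 and Fcer1g were named outside these rules. Not all of the genes that could be named are described above. The defining markers Pecam1, Tie1, Star, Cyp11a1, Pax2, Cdh16 and the haemoglobin genes were counted with their lists only, and none of them passed the threshold. The values of 2 listed genes, counted with their lists, are not reported here. Members and lists were chosen with earlier results of these data known. Alternatives were other pseudocounts (0.1, 0.5), scalings, a minimum mean of 2, no trend, a replicate block, and leaving out each library.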

Additional observations from a re-analysis of the deposited data

How the results depend on the processing

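Of the markers' directions, those of Maf, Pdgfrb and Tcf21 held under all 14 alternatives and those of Pdgfra and Nes did not; the causes were not tested. On the deposited values without scaling, the log2 changes of Maf, Pdgfra, Pdgfrb, Tcf21, Nes and Cdyl were 0.20, -0.10, -0.40, -0.31, -0.12 and -0.32, with Maf no longer past the threshold (limma) and Pdgfrb, Tcf21 and Cdyl (adjusted p = 0.0145) past it. That setting gave 1863 called genes, 305 higher and 1558 lower, against 929 (566 and 363). Among the 1863 were 6 interstitial lineage, 1 PDGF ligand and 6 PDGF signalling genes. Quantile normalization gave -0.027 for Pdgfra and -0.024 for Nes, with 1 ligand, 2 signalling and 5 intermediate filament genes called. Upper quartile scaling gave 0.29 for Maf (adjusted p = 0.0707), -0.00091 for Pdgfra and -0.024 for Nes. Without the trend Maf was at 0.32 (adjusted p = 0.0564), with 1 ligand and 5 intermediate filament genes called. Same-numbered libraries did not deviate together (correlations -0.06, -0.26 and -0.08 over 10213 genes, against -0.096 to 0.195 for other numbers). With 3 libraries per group this cannot tell whether equal numbers mark paired libraries. A replicate block gave 348 called genes (217 higher, 131 lower) and Maf at 0.32 (limma adjusted p = 0.103). Under that block 2 interstitial lineage, 0 ligand, 0 signalling and 1 intermediate filament genes were called. With 1 library left out, called genes numbered 260 (without Cdyl-Het 3) to 691 (without Cdyl-Het 1), 197 to 417 higher and 61 to 274 lower. In the same fits Maf ranged from 0.27 to 0.38 and Nes from -0.083 to 0.089, and 1 to 5 interstitial lineage, 0 to 2 ligand and 1 to 2 intermediate filament genes were called. The log2 ratio of Pdgfra to Nes (0.02) ranged from -0.068 to 0.15, below 0 in 4 of these 6 fits. The lowest marker value stood for 1558 reads (Pdgfrb, Cdyl-KO 1), and separate fragments may be fewer.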

Other observations

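Neural cells can also express Nes. Of 13 listed neural crest and neuronal genes, Ngfr and Tubb3 were in the tables, and their summed level was 16.2 to 19.5 scaled RPKM in Cdyl-Het and 16.1 to 18.6 in Cdyl-KO. Most of this sum was Ngfr, and the 2 genes differed in opposite directions, so the sum hides both. Tubb3, a tubulin of neurons, was at 0.708 to 1.88 in Cdyl-Het and 3.24 to 4.62 in Cdyl-KO. It rose (log2 change 1.14, limma adjusted p = 0.0206), as did 4.82% of all genes, and missed the threshold without Cdyl-KO 2 (0.0631) or Cdyl-KO 3 (0.0615). Ngfr, the mouse counterpart of the human surface protein used for the bead selection, was at 15.3, 15.5 and 17.7 in Cdyl-Het and at 12.9, 14.0 and 12.0 in Cdyl-KO. Its groups did not overlap, as in 15% of all genes on the lower side. The difference missed the threshold (log2 change -0.29, limma adjusted p = 0.0685, and 0.0235 on the deposited values). Which cells gave the Ngfr reads was not tested. Of 7 listed skeletal muscle genes 2 were in the tables, and neither passed.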
